A study of Homo sapiens with 12 samples.

Results

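Messenger RNA of UM-UC-3 cells given a miR-101 precursor was compared with that of the same cells given a control precursor, gene by gene. UM-UC-3 is an established human bladder cancer line. The comparison rested on 3 Illumina bead arrays titled miR-101 and 3 titled Control miRNA, out of 12 arrays in the series. The other arrays were 3 of control siRNA and 3 of EZH2 siRNA. Each agent was transfected at 50 nM for 72 h, so every group, controls included, was transfected cells. The sequences of the control precursor and of both siRNAs were not used here. Triplicate transfections are named in the design text, which does not say whether they were separate cultures, so the p-values reflect only how far these arrays differ, and that may be technical. A gene was described when its probe had a detection p-value under 0.05 on at least 3 of the 12 arrays. That left 13528 genes of 24962 distinct gene names on the array, each by its brightest passing probe.

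MicroRNAs are short RNAs that, loaded on an Argonaute protein, pair with messenger RNAs mainly through the bases called the seed and lower the stability or translation of those messages. MiR-101 is lost or low in several human cancers, and the series title names EZH2, the methyltransferase of Polycomb repressive complex 2, as a gene it represses. A transfected precursor is processed by the cell into the mature strand. The array reads the whole messenger RNA response at the end of the treatment, so direct targets and later changes are measured together. RNA from fewer cells of a kind and less RNA per cell cannot be told apart in such bulk samples.

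The mature miR-101-3p sequence is shown because it is the strand that names the agent; capitals mark the seed, bases 2 to 8. The table used here, from RefSeq on GRCh38.p14, places it on chr9:4850345-4850365, plus strand, within the MIR101-2 hairpin. The MIR101-1 hairpin, on chr1:65058434-65058508, minus strand, holds the same sequence. Among the 2370 mature names in that table only miR-101-3p held this seed. The related miR-144-3p, on chr17:28861548-28861567, minus strand, shares bases 2 to 7 of it, and its own bases 2 to 8 are in capitals.
hsa-miR-101-3p: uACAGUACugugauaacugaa
hsa-miR-144-3p: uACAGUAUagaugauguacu
The strand the vendor's precursor releases is not stated in the labels, and transcript sequences for a search of seed matches were not used here.

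Signals were even across the series. The median raw signal per array was 80.4 to 100.1 and the mean 304 to 497, the lowest mean being that of miR-101 replicate 2. Detected probes numbered 15453 to 16377 of 46713. Correlations of normalized log2 values were 0.996 to 0.999 within the control precursor arrays and 0.994 to 0.997 within the miR-101 arrays, against 0.971 to 0.974 across these groups. All 6 arrays lay on 1 chip, with control precursor at positions A to C and miR-101 at D to F, so treatment and position on the chip cannot be told apart. Both siRNA groups lay on the other chip.

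The response was broad and mostly shallow. With limma, Benjamini-Hochberg adjustment and a threshold of 0.05, 6071 genes (44.9%) changed. Of these 3194 (23.6%) were higher with miR-101 and 2877 (21.3%) lower. The arrays of the groups did not overlap for 7250 genes (53.6%). The median size of the change was 0.45 on the log2 scale among the genes that passed, and 86.4% of them changed less than 2-fold. At least 2-fold changes numbered 826 (6.11%), with 423 higher (3.13%) and 403 lower (2.98%). At least 4-fold, 36 were higher and 38 lower, and at least 8-fold, 5 and 4. The standard error of a change had a median of 0.0639, and for 8818 genes (65.2%) the 95% interval of the log2 change lay within 0.5 of 0 on either side.

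The share of genes that passed varied with brightness. Genes were split into 4 bins of equal size by mean intensity over the control precursor and miR-101 arrays together. In the dimmest bin, with means of 6.78 to 6.93 (log2), 13.6% passed. In the next bins 48.7%, 60.1% and 57.1% passed, in order of brightness. In the dimmest bin 0 of the genes that passed reached 2-fold, but the binning fixed that count. A gene near the low end with either agent and 2-fold higher with the other has a mean above 6.93. No conclusion on dim genes is drawn from it. Dim genes had little room to fall, and their log2 changes are understated by the offset used in normalization. In the plot of all genes the changes are narrowest among the dim ones, and placing genes by that joint mean narrows them too.

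**Figure D1:**
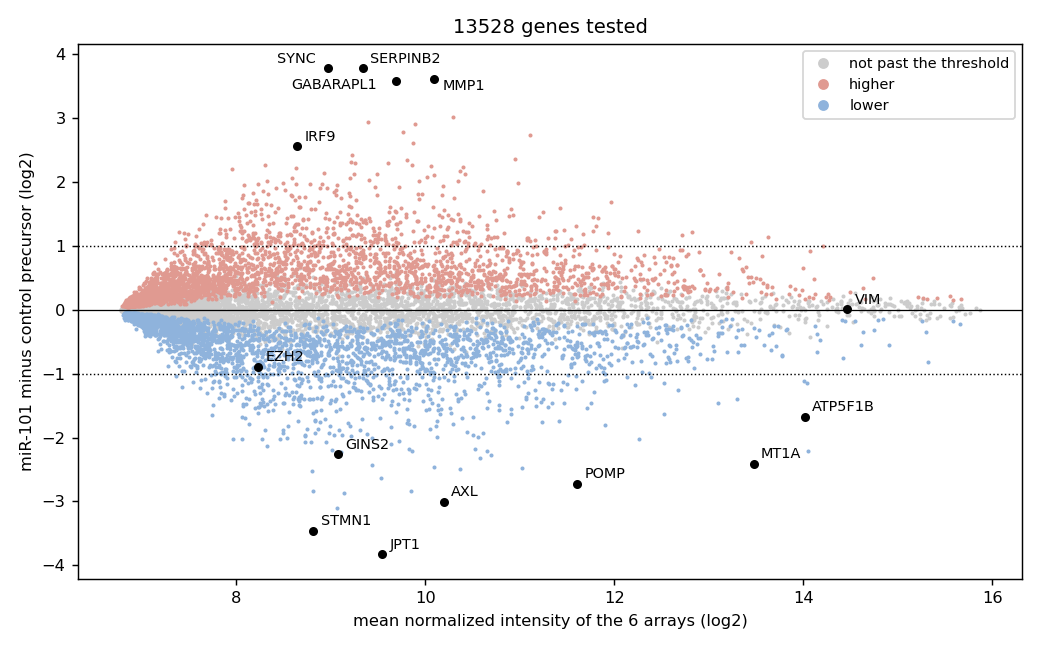
Change with miR-101 (y axis, log2 difference from control precursor) against the mean normalized intensity of the 6 arrays (x axis, log2) for 13528 genes, coloured by whether the gene passed the limma threshold and in which direction. Dotted lines mark 2-fold. The changes are narrowest at the left, with SYNC, SERPINB2, MMP1 and GABARAPL1 at the top and JPT1 and STMN1 at the bottom. The bright gene VIM lies at 0 within 0.01.

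EZH2 itself was measured at 8.88, 8.79 and 8.36 (log2 intensity) on the control precursor arrays and at 7.68, 7.81 and 7.86 on the miR-101 arrays. All 3 miR-101 arrays lay below all 3 controls. The change was -0.90 (SE 0.13, adjusted p 0.0003 by limma), and another EZH2 probe gave -0.92. This fall was smaller than those of the 403 genes that fell at least 2-fold.

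Among the largest falls were regulators of microtubules and actin. JPT1, a microtubule-associated protein also called HN1, lay at 11.46, 11.42 and 11.50 with the control precursor and at 7.68, 7.63 and 7.58 with miR-101. STMN1, the tubulin-sequestering stathmin, lay at 10.52, 10.53 and 10.59 against 7.11, 7.10 and 7.05. Both messages were abundant in controls and near the low end of the intensity scale with miR-101. JPT1 fell 14.2-fold (adjusted p 6.68e-10) and STMN1 10.98-fold (adjusted p 2.63e-10). A second, dimmer STMN1 probe gave a log2 change of -0.02. MARCKSL1, an actin-binding membrane protein, changed by -2.84. The list of stathmins, tubulins and microtubule-associated proteins as a whole was split, with 10 of 37 tested higher and 11 lower and a median log2 change of -0.0016. Against the control siRNA 5 were higher and 19 lower.

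AXL, a receptor tyrosine kinase bound by GAS6, was at 11.66, 11.67 and 11.76 with the control precursor and at 8.71, 8.66 and 8.72 with miR-101. Replicates of AXL differed by little next to that gap, and the fall was 8.02-fold (log2 change -3.00, SE 0.04, adjusted p 1.04e-10). HBEGF, a ligand of the EGF receptor, changed by -1.54. Of 39 receptor tyrosine kinases and ligands 13 rose (33.3%) and 7 fell (17.9%), AXL and HBEGF among the latter. The shares over all genes were 23.6% and 21.3%, and the median log2 change of the list was 0.04. That split turned against the control siRNA, where 7 rose and 13 fell.

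Other large falls were in genes of transcription, protein turnover and mitochondria. SUB1, a transcriptional coactivator, lay at 10.58, 10.49 and 10.77 against 7.55, 7.64 and 7.35 with miR-101. POMP, the chaperone that assembles the proteasome core, lay at 12.84, 12.87 and 13.19 against 10.41, 10.01 and 10.33. TFB2M, a mitochondrial transcription factor, lay at 10.79, 10.94 and 10.80 against 8.29, 8.34 and 8.02. The falls were 8.55-fold, 6.59-fold and 6.18-fold (limma adjusted p 2.18e-08, 2.64e-07 and 2.5e-08). KLF2, a zinc finger transcription factor, changed by -2.49, the Mediator subunit MED20 by -2.42, DENR, which acts in translation re-initiation, by -2.27, and NETO2, an auxiliary subunit of kainate receptors, by -2.46. SMCO4, a small membrane protein, changed by -2.87.

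Metallothioneins bind zinc and other metals. MT1X was at 12.10, 12.17 and 12.54 with the control precursor and at 9.91, 9.40 and 10.05 with miR-101, a 5.59-fold fall. MT1A was at 14.67, 14.59 and 14.79 against 12.31, 11.93 and 12.58, a 5.32-fold fall. The lowest miR-101 array was replicate 2 for both. Metallothionein genes are near-identical copies, and a probe for 1 of them may pick up others.

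The 3 largest rises were in SYNC, SERPINB2 and MMP1. SYNC, the intermediate filament protein syncoilin, went from 7.05, 7.11 and 7.07 with the control precursor to 10.87, 10.95 and 10.74 with miR-101. SERPINB2, an inhibitor of plasminogen activators, went from 7.52, 7.36 and 7.49 to 11.19, 11.41 and 11.09. MMP1, the interstitial collagenase, went from 8.40, 8.25 and 8.21 to 11.93, 11.89 and 11.86. These genes rose from a low level to a high one in every replicate. The rises were 13.7-fold for SYNC (adjusted p 1.2e-10), 13.7-fold for SERPINB2 (adjusted p 1.1e-08) and 12.2-fold for MMP1 (adjusted p 1.16e-07). Of 29 matrix proteases and inhibitors tested 12 rose and 0 fell, with a median log2 change of 0.18, and against the control siRNA 12 rose and 5 fell. The gelatinase MMP9 was at 1.35 and the urokinase PLAU at 1.13, both past the threshold. Members of a list that are named here beyond the 2 with the largest changes were chosen after their values were seen.

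**Figure D2:**
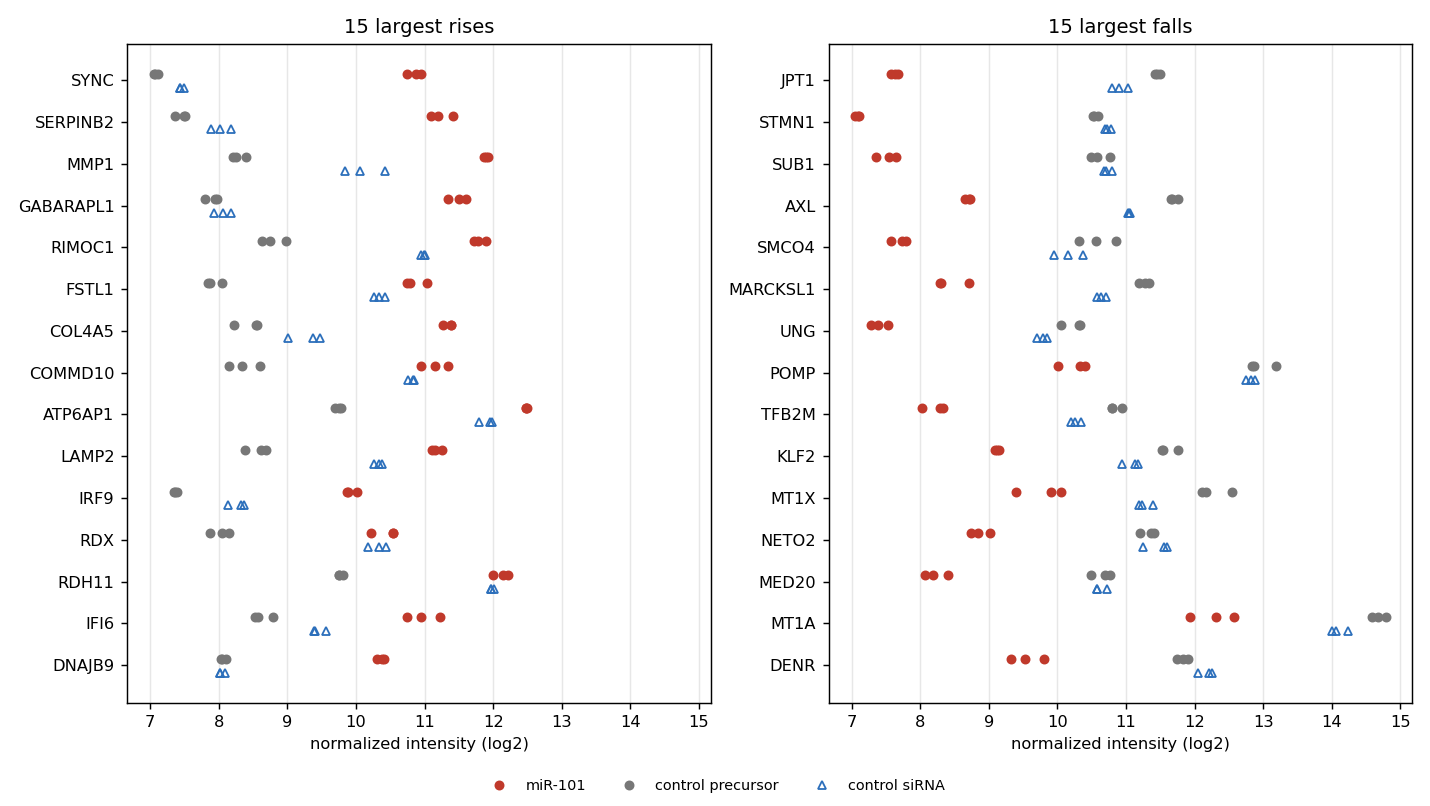
Normalized intensity (x axis, log2) of the 15 largest rises and 15 largest falls, one row per gene, on each of 3 miR-101, 3 control precursor and 3 control siRNA arrays. Only genes whose miR-101 and control precursor points do not overlap were eligible. Control siRNA triangles lie nearer the control precursor for SYNC, GABARAPL1, DNAJB9 and all 15 falls, and nearer miR-101 for RDX, RDH11, COMMD10 and FSTL1.

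Several of these genes depended on which control was used. RDX, the membrane-actin linker radixin, was at 8.15, 8.04 and 7.87 with the control precursor and at 10.54, 10.55 and 10.21 with miR-101, a rise of 2.41 (log2). Its mean with the control siRNA was 10.31, so against that control the change was 0.12 and did not pass the threshold (adjusted p 0.4). RDH11, a retinol dehydrogenase, had 2.35 and 0.14 in the same comparisons, and the latter did not pass (adjusted p 0.11). For RDX and RDH11 the control precursor arrays were the low ones of the series. RIMOC1, a regulator of mitophagy, rose by 3.01 against the control precursor and 0.82 against the control siRNA. FSTL1, a secreted glycoprotein, had 2.93 and 0.51, and COMMD10 had 2.78 and 0.34. Among the 15 largest rises 7 had at least 0.5 of their log2 size against the control siRNA, and among the 15 largest falls 15 did. MMP1 was among the rises that kept less. Of all genes higher by at least 2-fold, 345 of 423 were also higher and past the threshold against the control siRNA, where 43.1% of genes changed in either direction. Of those lower by at least 2-fold, 366 of 403 were also lower and past it. Fewer were kept among all genes that passed: 2148 of 3194 higher and 1788 of 2877 lower. Another 124 of the higher and 99 of the lower genes passed there with the opposite sign. The same miR-101 arrays stand in both comparisons, and the siRNA arrays lay on another chip.

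**Figure D3:**
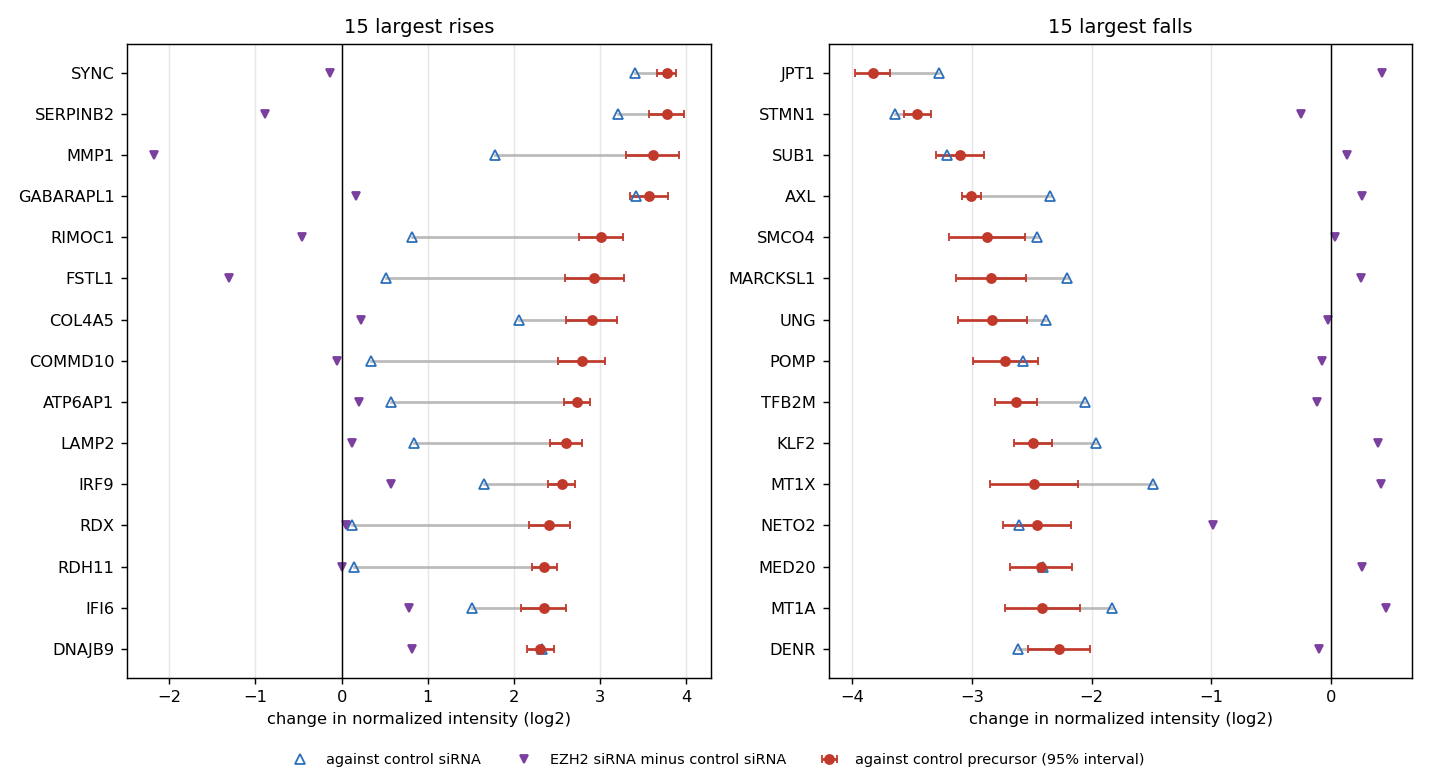
Log2 change (x axis) of the 15 largest rises and 15 largest falls with miR-101 against the control precursor (red circles, bars are 95% intervals) and against the control siRNA (blue triangles), with the change under EZH2 siRNA in purple. The blue triangles of the falls keep at least 0.5 of the log2 size of the red circles. Those of the rises keep less than that for MMP1, RIMOC1, FSTL1, COMMD10, ATP6AP1, LAMP2, RDX and RDH11.

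DNA replication genes were lower with miR-101. Of 28 genes of origin licensing and firing, the steps that load and activate the replicative helicase, 24 fell and 1 rose, with a median log2 change of -0.64. Over all genes the median was -0.00076. GINS2, a subunit of the activated helicase, lay at 10.13, 10.11 and 10.38 with the control precursor and at 7.94, 7.86 and 8.04 with miR-101. MCM3, a subunit of the helicase ring, lay at 9.95, 9.96 and 9.57 against 7.71, 7.86 and 7.70. GINS2 and MCM3 fell 4.8-fold and 4.21-fold (limma adjusted p 2.33e-07 and 3.86e-07). Sizes were uneven within the helicase: MCM2 (-2.06), MCM5 (-1.98) and MCM4 (-1.93) were near MCM3, MCM7 was at -1.25 and MCM6 at -0.29, all past the threshold, while the ring's relative MCM8 was at 0.20 and not past it. The origin recognition subunits ORC2 (-0.03) and ORC3 (-0.09) did not pass, and ORC5 rose by 0.22.

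Of 33 replication fork genes 27 fell and 3 rose, with a median of -0.82. POLE2, a subunit of the leading-strand polymerase, was at 9.39, 9.34 and 9.46 against 7.23, 7.37 and 7.19 with miR-101, a 4.39-fold fall. The histone chaperone ASF1B changed by -1.59. Of 31 genes of nucleotide and one-carbon synthesis 22 fell and 4 rose (median -0.64), with the large ribonucleotide reductase subunit RRM1 at -1.50 and DUT, which clears dUTP, at -1.49. Repair lists moved in part with them. Of 31 genes of homologous recombination and the Fanconi anaemia pathway 23 fell and 0 rose, led by the nuclease EXO1 (-1.69) and by FANCG (-1.36). A dimmer EXO1 probe gave -0.02. Of 26 base excision and mismatch repair genes 10 fell and 2 rose. Among them the uracil glycosylase UNG fell 7.11-fold (adjusted p 2.86e-07) and was called undetected on all 3 miR-101 arrays. A dimmer UNG probe gave a log2 change of -0.05.

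Chromosome segregation genes were lower as well. Of 41 kinetochore and spindle checkpoint genes 36 fell and 1 rose, with a median of -0.72. CENPM, a centromere protein, was at 10.84, 10.75 and 11.16 against 8.68, 8.68 and 8.84 with miR-101. MAD2L1, the checkpoint protein that holds back anaphase, was at 10.71, 10.75 and 10.78 against 8.79, 8.95 and 8.34. The falls were 4.54-fold and 4.15-fold (limma adjusted p 6.23e-07 and 1.84e-06), and a further CENPM probe gave -1.75. Of 53 genes of mitotic entry, spindle and exit 44 fell and 2 rose, with a median of -0.84. The inhibitory kinase WEE1 changed by -1.86 and the Aurora kinase AURKB by -1.64. Of 21 condensin and cohesin genes 12 fell and 3 rose, with the cohesin protector SGO1 at -1.19 and sororin, CDCA5, at -0.98.

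The G1 regulators were mixed in kind. Of 30 cyclins, kinases, inhibitors, E2F and RB genes 18 fell and 6 rose, with a median of -0.48 that was -0.27 against the control siRNA. SKP2, the F-box protein that directs p27 to degradation, was at 10.78, 10.87 and 10.73 against 9.02, 8.99 and 8.90 with miR-101. E2F2, an activating E2F, was at 9.68, 9.67 and 9.74 against 7.92, 7.82 and 8.15. Each fell by more than 3-fold, 3.54-fold for SKP2 and 3.33-fold for E2F2, and another SKP2 probe gave a log2 change of -0.45. Cyclin D1, CCND1, was at -1.26, while the CDK inhibitors CDKN1B (1.05) and CDKN2C (1.22) rose. CDK6 and E2F1 changed by -1.28 and -1.22 against the control precursor and by -0.03 and -0.37 against the control siRNA. CDKN1A, encoding p21, was at -0.69 and 0.37 in those comparisons.

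Chromatin proteins of dividing cells followed. Of 39 genes of the nuclear lamina and of chromatin in proliferating cells 23 fell and 1 rose, with a median of -0.33. LBR, which anchors chromatin to the lamina and also reduces sterols, was between 10.82 and 11.08 with the control precursor and between 8.67 and 8.89 with miR-101, a 4.62-fold fall. UHRF1, which recruits the maintenance DNA methyltransferase, changed by -1.91. Of 55 histone genes 18 fell and 7 rose, among them H1-10 (-1.78) and H2AX (-1.72). That list turned over with the control, to 8 lower and 20 higher against the control siRNA, and histone genes are near-identical copies that a probe may not tell apart. KDM2B, a histone demethylase, changed by -1.27, and TRIM28, a corepressor of zinc finger repressors, by -1.47. Of 339 ZNF zinc finger genes 103 rose and 41 fell, with ZNF207, a spindle assembly protein, at -1.50 and ZNF395 at -1.19.

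**Figure D4:**
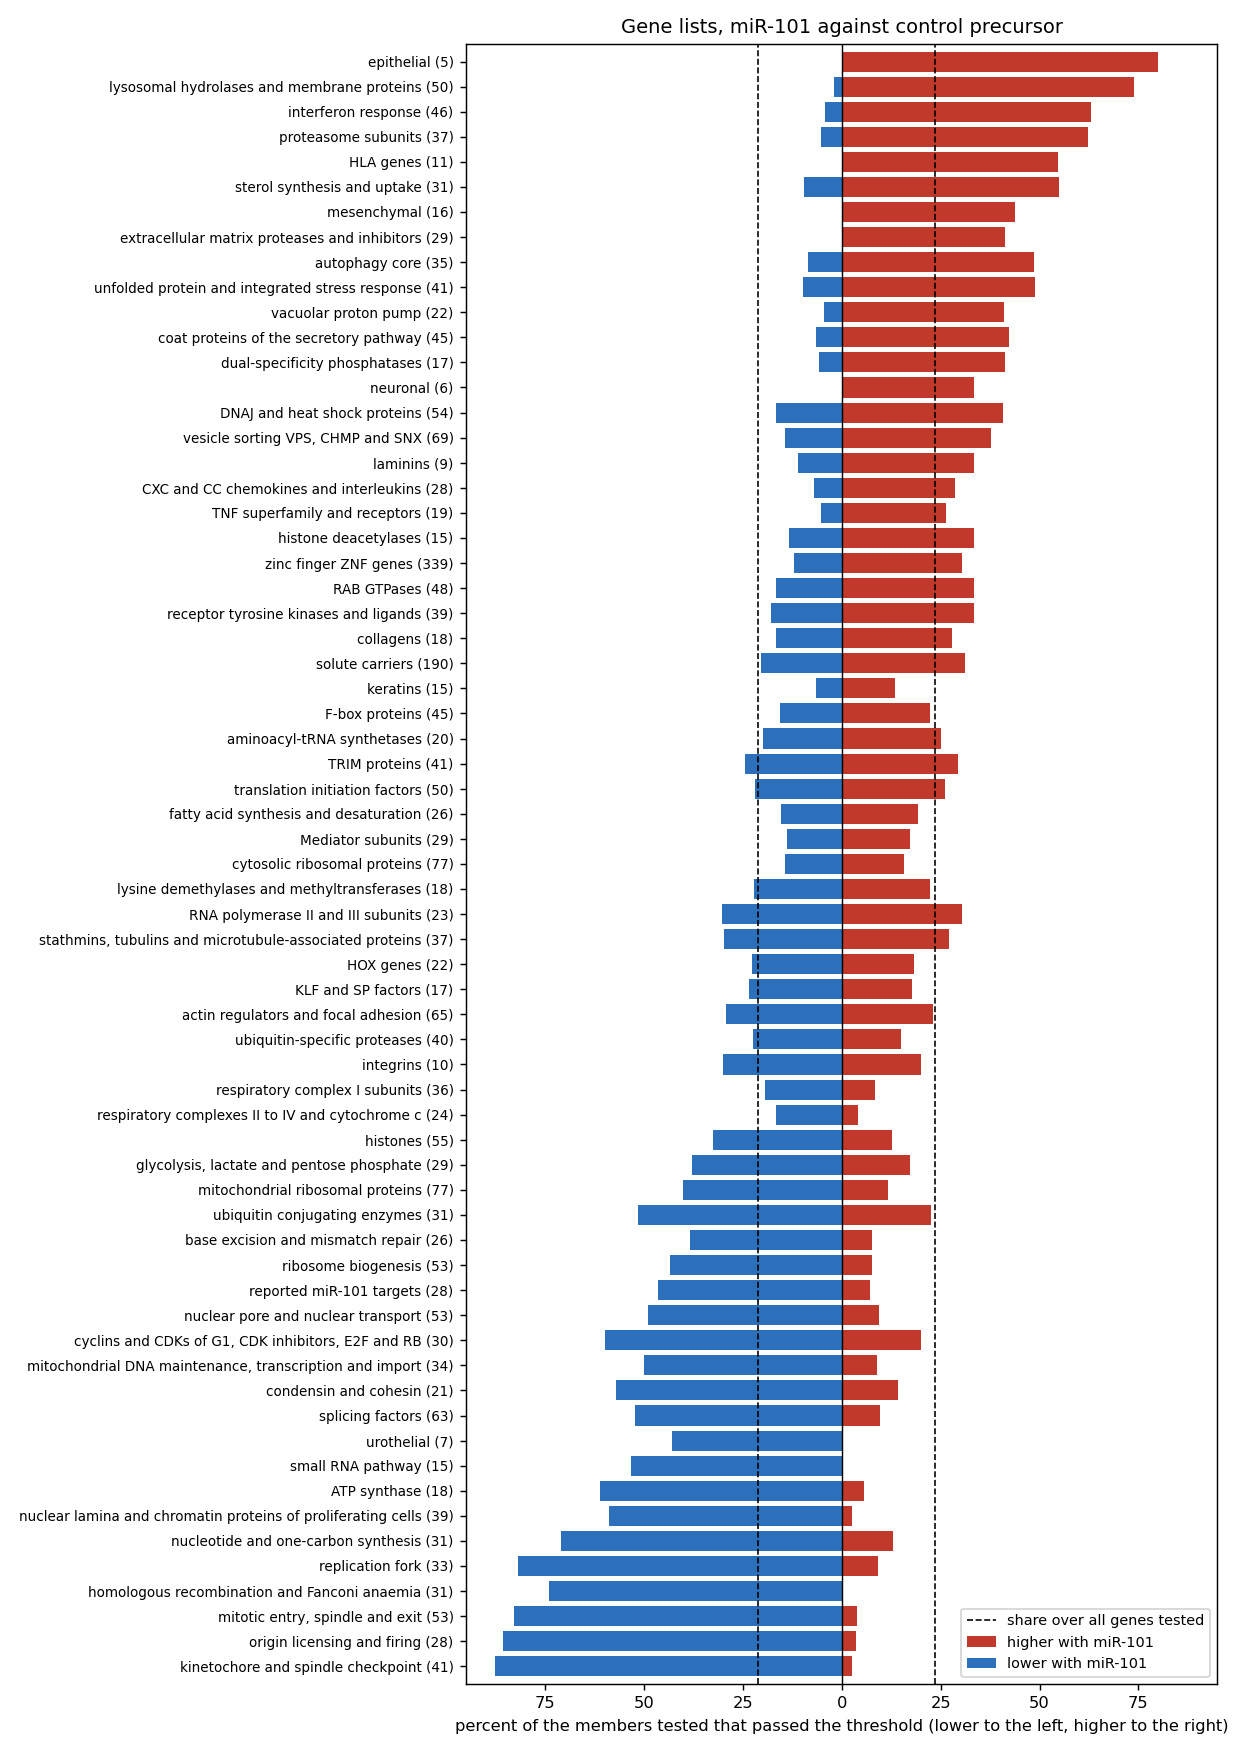
Percent of the tested members of each gene list with at least 5 members tested (number in parentheses) that passed the threshold with miR-101, higher in red to the right and lower in blue to the left. Dashed lines mark the shares over all genes, 23.6% higher and 21.3% lower; the cell division lists sit at the bottom and the lysosomal, interferon, proteasome and sterol lists near the top.

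Promoters are shown for lists of which many members moved one way. They run from 250 bases before to 50 bases after the annotated start, from RefSeq on GRCh38.p14, and were found for 9457 of the 13528 genes tested (69.9%), so shares are given only for lists with at least 80% of members matched. Each motif was searched on both strands, and the shares are descriptions of letters in a window. The share of all is over every promoter of the table, including genes not detected here, whereas the list promoters belong to genes tested. How far that unlike set moves the shares was not tested. The E2F motif, TTTCCCGC or TTTGGCGC, was in 18 of 52 promoters of the replication lists (34.6%) and in 2.31% of all 27305 promoters of the table. The CHR element of mitotic genes, TTTGAA, was in 43 of 77 promoters of the kinetochore and mitotic lists (55.8%) and in 15.4% of all. The CCAAT box was in 52 of those 77 (67.5%) and in 35.7% of all. An interferon regulatory factor core, AANNGAAA, was in 30 of 38 promoters of the interferon list (78.9%) and in 23.2% of all. The unfolded protein element, TGACGTGG, was in 2 of 39 promoters of its list (5.13%) and in 0.795% of all, but in 0 of the 20 members that rose. The matches were in DNAJC10, which changed by -0.18, and HYOU1, at 0.28 and not past the threshold. For the sterol and lysosomal lists fewer than 80% of members were matched and no share is given. The members shown are those past the threshold with the largest change and a match, each gene printed once, and capitals mark the motif as it reads on the printed strand. They are GINS2 (E2F, chr16:85688905-85689204, minus strand), MAD2L1 (CHR, chr4:120066799-120067098, minus strand), CENPF, a kinetochore protein that changed by -2.01 (CCAAT, chr1:214602945-214603244, plus strand, 4 matches; MAD2L1 also holds a CCAAT box) and IRF9 (interferon core, chr14:24161015-24161314, plus strand).
GINS2: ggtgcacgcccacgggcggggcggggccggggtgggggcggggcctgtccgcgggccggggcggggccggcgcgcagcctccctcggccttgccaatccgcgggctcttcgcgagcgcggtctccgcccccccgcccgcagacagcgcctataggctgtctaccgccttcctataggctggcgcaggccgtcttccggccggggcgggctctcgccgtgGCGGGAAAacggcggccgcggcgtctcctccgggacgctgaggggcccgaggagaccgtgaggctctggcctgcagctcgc
MAD2L1: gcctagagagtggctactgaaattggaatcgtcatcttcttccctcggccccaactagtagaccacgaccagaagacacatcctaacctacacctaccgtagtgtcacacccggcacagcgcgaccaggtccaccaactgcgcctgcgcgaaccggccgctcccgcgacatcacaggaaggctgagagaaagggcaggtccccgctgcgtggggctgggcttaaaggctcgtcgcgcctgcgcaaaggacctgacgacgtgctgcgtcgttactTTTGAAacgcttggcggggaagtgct
CENPF: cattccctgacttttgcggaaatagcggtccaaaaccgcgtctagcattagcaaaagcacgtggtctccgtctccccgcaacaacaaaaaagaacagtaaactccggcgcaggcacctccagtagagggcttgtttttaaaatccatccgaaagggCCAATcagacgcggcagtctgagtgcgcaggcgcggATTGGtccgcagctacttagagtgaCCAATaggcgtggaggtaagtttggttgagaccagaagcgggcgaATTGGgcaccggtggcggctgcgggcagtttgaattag
IRF9: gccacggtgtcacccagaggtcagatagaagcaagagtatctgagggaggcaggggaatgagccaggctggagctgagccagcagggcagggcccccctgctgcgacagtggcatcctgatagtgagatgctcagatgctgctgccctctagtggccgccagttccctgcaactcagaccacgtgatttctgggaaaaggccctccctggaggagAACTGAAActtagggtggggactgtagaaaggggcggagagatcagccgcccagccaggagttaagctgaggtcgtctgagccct
In the replication lists the promoters with an E2F match had a median log2 change of -0.89 and those without one -0.77. Of the 44 of these members that fell past the threshold 14 held the motif, beside 18 of all 52. In the mitotic lists the medians were -0.80 with and -0.53 without a CCAAT box, and -0.80 with and -0.68 without the CHR. Of the 66 of these members that fell 44 held a CCAAT box and 36 the CHR, beside 52 and 43 of all 77. So the motifs were not more frequent among the members that fell than in their whole lists. In the interferon list 20 of the 24 members that rose held the core, beside 30 of all 38.

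Lysosomal genes rose. Of 50 hydrolases and membrane proteins of the lysosome 37 rose and 1 fell, with a median log2 change of 0.31. LAMP2, a major protein of the lysosomal membrane, went from 8.70, 8.61 and 8.38 with the control precursor to 11.15, 11.26 and 11.10 with miR-101. In LAMP2 the 6.09-fold rise was not matched against the control siRNA, where the log2 change was 0.84 in place of 2.61, and another probe gave 1.29 against the control precursor. The acid lipase LIPA (1.48), the sialidase NEU1 (1.36), the activator GM2A (1.31) and the peptidase TPP1 (1.14) also passed. GUSB, beta-glucuronidase, was the member that fell (-0.88). Against the control siRNA 32 rose and 2 fell. Of 22 genes of the vacuolar proton pump, which acidifies the lysosome, 9 rose and 1 fell, led by ATP6AP1 (2.74, and 0.57 against the control siRNA) and the catalytic subunit ATP6V1A (1.01).

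Of 35 core autophagy genes 17 rose and 3 fell, with a median of 0.24. GABARAPL1, a ubiquitin-like protein that coats the autophagosome, went from 7.80, 7.95 and 7.98 to 11.60, 11.34 and 11.50. Every miR-101 array was above 11 and every control below 8, an 11.9-fold rise (adjusted p 1.83e-08) that was 3.42 on the log2 scale against the control siRNA. WIPI1, which binds phosphoinositide on the forming autophagosome, rose by 1.70, the receptor OPTN by 1.41 and the receptor TAX1BP1 by 1.14. The receptor SQSTM1 was at -0.08 and did not pass against the control precursor, but was at 1.32 against the control siRNA. MAP1LC3B was at 0.79 and -0.25 in those comparisons.

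Some genes of membrane traffic were higher. Of 45 coat proteins of the secretory pathway 19 rose and 3 fell, with the GTPase SAR1B, which starts COPII coats, at 1.85 and the retrieval receptor KDELR3 at 1.37. Of 69 VPS, CHMP and SNX sorting genes 26 rose and 10 fell, led by VPS8, a subunit of the endosomal CORVET complex (1.66), and SNX6 (1.10), for which a dimmer probe gave 0.01. RAB GTPases were split, with 16 of 48 higher and 8 lower. RAB5A, the GTPase of early endosomes, went from 10.91, 11.04 and 10.98 down to 9.31, 9.14 and 8.89, a 3.64-fold fall, and RAB2B rose by 1.32.

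Sterol genes rose against the control precursor. Of 31 genes of sterol synthesis and uptake 17 rose and 3 fell, with a median of 0.34. SC5D, an enzyme late in cholesterol synthesis, went from 8.46, 8.35 and 8.59 to 10.70, 10.98 and 10.59, a 4.89-fold rise. IDI1 (2.12), MSMO1 (1.52) and HMGCS1 (1.31) also rose, while SQLE (0.15) did not pass the threshold. The 3 that fell were LBR (-2.21), which is counted in the chromatin list too, SCAP (-0.32) and TM7SF2 (-0.21). Against the control siRNA 12 rose and 3 fell and the median was 0.13. In that comparison DHCR7 went from 0.96 to 0.12 and the cholesterol transporter NPC1 from 1.10 to 0.07. Of 26 fatty acid genes 5 rose and 4 fell, with ELOVL4, which makes very long chains, at 1.19 and the desaturase SCD at 0.93, the latter 0.21 (adjusted p 0.21) with the control siRNA as control. There 4 rose and 10 fell.

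Interferon response genes rose. Of 46 tested 29 rose and 2 fell, with a median of 0.29. IRF9, a subunit of the factor ISGF3, went from 7.35, 7.36 and 7.39 with the control precursor to 9.87, 10.01 and 9.88 with miR-101, a 5.87-fold rise. IFI6, an interferon-induced mitochondrial protein, went from 8.58, 8.52 and 8.79 to 10.95, 10.75 and 11.22, a 5.08-fold rise. STAT2 (1.17), another ISGF3 subunit, ISG15 (1.80), GBP2 (1.85) and IFI35 (1.90) rose too, whereas IFITM1 (-0.0030) and OAS1 (0.07) did not pass. IRF1 was the largest fall of the list at -1.40, and was at 0.31 against the control siRNA. Of 11 HLA genes 6 rose and 0 fell, with HLA-E at 1.15 and HLA-B at 0.96, and with the reservation that HLA probes can bind several family members. IL11, a cytokine of the IL6 family, went from 7.28, 7.14 and 7.09 to 9.42, 9.64 and 9.24, a 4.81-fold rise. CCL20, a chemokine, was at 8.30, 8.30 and 9.09 against 6.98, 6.83 and 6.93 with miR-101, but the control siRNA arrays had a mean of 6.88, so the fall of 1.65 was absent against that control (0.04).

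Stress and protein turnover lists differed in direction. Of 41 genes of the unfolded protein and integrated stress response 20 rose and 4 fell, with a median of 0.21, and against the control siRNA 17 rose and 10 fell. DNAJB9, a co-chaperone of the endoplasmic reticulum, went from 8.04, 8.03 and 8.11 to 10.38, 10.41 and 10.31. Its 4.95-fold rise (log2 2.31) was as large against the control siRNA (2.33). DDIT4, an inhibitor of mTOR signalling, went from 8.67, 8.70 and 8.82 to 10.92, 11.05 and 11.03, a 4.82-fold rise. Of 37 proteasome subunits 23 rose and 2 fell, with a median of 0.35, the largest in PSMB5 (0.82) and PSMD13 (0.81), so POMP, at -2.72, moved opposite to most subunits. The ubiquitin-conjugating enzymes had 7 higher and 16 lower of 31, led by UBE2F (-1.97), which carries NEDD8, and UBE2D3 (-1.49), whose dimmer probes gave -0.01 and -0.05. The F-box genes FBXO33 (1.35) and FBXO4 (-1.22) went in opposite directions.

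In 4 lists of RNA and ribosome factors more members fell than rose. Of 63 splicing factors 33 fell and 6 rose, with a median of -0.25. HNRNPA0 was at 12.15, 12.12 and 12.06 against 10.29, 10.53 and 10.27, a 3.36-fold fall. SNRPC, a protein of the U1 particle, went the other way, by 2.06, but was at -0.03 against the control siRNA. Of 53 nuclear pore and transport genes 26 fell and 5 rose, with a median of -0.43 (RANBP1 -1.54, IPO5 -1.36). Of 53 ribosome biogenesis genes 23 fell and 4 rose, with a median of -0.22 that was -0.05 against the control siRNA (MRTO4 -1.21, NOLC1 -0.98). Of 77 cytosolic ribosomal proteins 12 rose and 11 fell. RPL34 (-1.31) had another probe at 0.03, and with the control siRNA as control it was at -0.11, without passing. There 32 of these proteins rose and 8 fell. The RNA polymerase III subunit POLR3K changed by -1.51. Among 15 genes that make or load small RNAs, 8 fell and 0 rose, led by the Dicer partner PRKRA, which went from 9.83, 9.84 and 9.99 to 8.57, 8.45 and 8.27, and by DGCR8 (-0.84).

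Mitochondrial genes were lower in part. Of 18 ATP synthase genes 11 fell and 1 rose, with a median of -0.27. Against the control siRNA 5 fell and 4 rose and the median was -0.05. The catalytic subunit ATP5F1B, among the brightest probes, went from 14.89, 14.86 and 14.80 to 13.22, 13.26 and 13.07, a 3.18-fold fall that was as large against the control siRNA (-1.97 in place of -1.67). Of 34 genes of mitochondrial DNA maintenance, transcription and import 17 fell and 3 rose (10 and 0 against the control siRNA), with TFB2M the largest and PHB1, prohibitin, at -0.94. Of 77 mitochondrial ribosomal proteins 31 fell and 9 rose (median -0.19), and MRPL42 (-1.25) and MRPL19 (1.15) had the largest sizes. Against the control siRNA 23 of them fell and 13 rose, with a median of -0.05. Complex I had 3 higher (8.33%) and 7 lower (19.4%) of 36, both below the shares over all genes (23.6% and 21.3%). The pentose phosphate enzyme TKT changed by -1.11 and the hexokinase HK1 by 1.06, in a list of 29 with 11 lower and 5 higher.

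Genes reported in the literature as miR-101 targets were listed as well, and the choice of that list is not independent of the known biology. Of 28 tested 13 fell and 2 rose, with a median of -0.19. STMN1, RAB5A, ARID1A (-1.29) and the integrin chain ITGA3 (-1.19) fell by more than 2-fold. RAC1 (-0.96), EZH2, NLK (-0.89), LMNB1 (-0.88), MCL1 (-0.67), MTOR (-0.51), PRKAA1 (-0.44), FOS (-0.28) and ATG4D (-0.11) passed with smaller falls. APP was at -0.73 and did not pass. DUSP1 (0.18) and KLF6 (0.86) rose. Another 12 did not pass, among them DNMT3A (-0.0020) and JAK2 (0.0010). RAC1 and NLK were at -0.09 and -0.11 against the control siRNA.

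Matrix and surface genes showed few shared directions. COL4A5, a basement membrane collagen chain, went from 8.56, 8.55 and 8.22 to 11.39, 11.38 and 11.27, a 7.48-fold rise, while COL4A1 fell (-0.92). Of 18 collagens 5 rose and 3 fell. The laminin chains LAMA5 (1.41) and LAMB2 (1.29) rose, and LAMA5 was at 0.08 against the control siRNA. Integrins gave 2 higher and 3 lower of 10. Among 190 solute carriers 59 rose (31.1%) and 39 fell (20.5%), beside 23.6% and 21.3% over all genes. The hexose carrier SLC2A6 (2.01) and the lysosomal carrier SLC46A3 (1.83) were the largest. KLF9, a glucocorticoid-induced factor, rose by 1.48. HOXA5 rose by 1.12 among 22 HOX genes with 4 higher and 5 lower.

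Some genes were called detected in 1 group only. A set of 206 genes was detected on all 3 miR-101 arrays and on no control precursor array, and 98 had the reverse pattern. Of these 148 and 56 passed the threshold. IRS1, the insulin receptor substrate, was at 7.94, 8.04 and 8.02 with miR-101 and at least 2.28-fold higher than with the control precursor. PADI4, which converts arginine to citrulline in histones, was at least 2.08-fold higher, PRUNE2 at least 1.61-fold, CLIP3 at least 1.4-fold and CEMIP2 at least 1.36-fold. In the other direction, besides UNG, TYMSOS, an RNA from the thymidylate synthase locus, was at least 2.3-fold lower, and KRTAP2-4, ITGB1BP2 and CPT1B at least 1.16-fold, 1.14-fold and 1.12-fold lower. Apart from UNG, whose 7.11-fold is its measured change and not a bound, these values did not exceed 2.3-fold. Detection here is the deposited p-value, which did not always follow intensity. NME2 (12.8 in both groups), THOC3 (10.6 and 10.4) and AP3M1 (8.93 and 9.25) were counted as undetected with miR-101, and UNG had a mean of 7.40 there.

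The labelled cell type was checked against markers. Of 18 urothelial markers 7 were tested and 11 were not, for want of detection on 3 arrays. KRT18 was the brightest at 11.1, and 3 of the 7 fell, led by ELF3 (-0.96) and PPARG (-0.61). Of 21 epithelial markers 5 were tested, and 4 rose and 0 fell, with the tight junction gene CLDN1 at 1.52. Of 23 mesenchymal markers 16 were tested, with vimentin, VIM, at 14.5 in both groups, and 7 rose and 0 fell, led by ACTA2 (1.67) and ZEB2 (0.59). Against the control siRNA the mesenchymal count was 3 and 3, and ZEB2 was at 0.08. TJP1, a tight junction scaffold, was 0.54 against the control precursor and -1.01 against the control siRNA. Markers of other cell types were largely undetected: 2 of 10 leukocyte, 4 of 8 endothelial, 3 of 9 erythroid and 6 of 10 neuronal genes were tested. Of these 1, 1, 2 and 2 rose and 0 fell in each list. The leukocyte list held PTPRC, at -0.0042 and not past the threshold, and the lysosomal protein CD68 (0.98). Mean log2 intensity of the erythroid markers was 6.91 to 6.93 with the control precursor and 7.03 to 7.11 with miR-101. Their part in the other results was not tested.

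The response to EZH2 siRNA was set beside that to miR-101. Genes that the siRNA may change apart from EZH2 were not told apart, and 1419 genes (10.5%) passed with it. The responses to miR-101 and to EZH2 siRNA, each against its own control, differed for 4579 genes (33.8%), with 2354 higher and 2225 lower under miR-101. The controls themselves differed for 3823 genes (28.3%). EZH2 itself changed by -1.22 with the siRNA, and the difference of 0.32 from miR-101 did not pass (adjusted p 0.2). Of the 826 genes that changed at least 2-fold with miR-101, 796 differed between the responses. MMP1 differed most, by 5.79, since it rose by 3.61 with miR-101 and changed by -2.18 with EZH2 siRNA. SERPINB2 (4.67), FSTL1 (4.24), SYNC (3.91) and RIMOC1 (3.48) followed. These sizes depend on the control: against the control siRNA the change with miR-101 was 1.78 for MMP1, 0.51 for FSTL1 and 0.82 for RIMOC1. In the other direction JPT1 (-4.26), AXL (-3.27), SUB1 (-3.23), STMN1 (-3.21) and MARCKSL1 (-3.09) had the largest differences. Among the replication, kinetochore and mitotic lists the differences that passed were mostly lower with miR-101: 16 against 0 for origin licensing, 22 against 2 for the fork, 30 against 1 for the kinetochore and 37 against 1 for mitosis. Lysosomal genes had 30 higher and 2 lower, interferon genes 16 and 2 and proteasome subunits 17 and 3. EZH2 siRNA by itself raised 17 of the 46 interferon genes and lowered 0. Median changes with EZH2 siRNA were -0.05, -0.0081, -0.07 and 0.0039 for the first 4 lists, 0.03 for lysosomal genes and 0.19 for interferon genes. Chip and comparison coincide here, since each response was measured within its own chip.

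**Figure D5:**
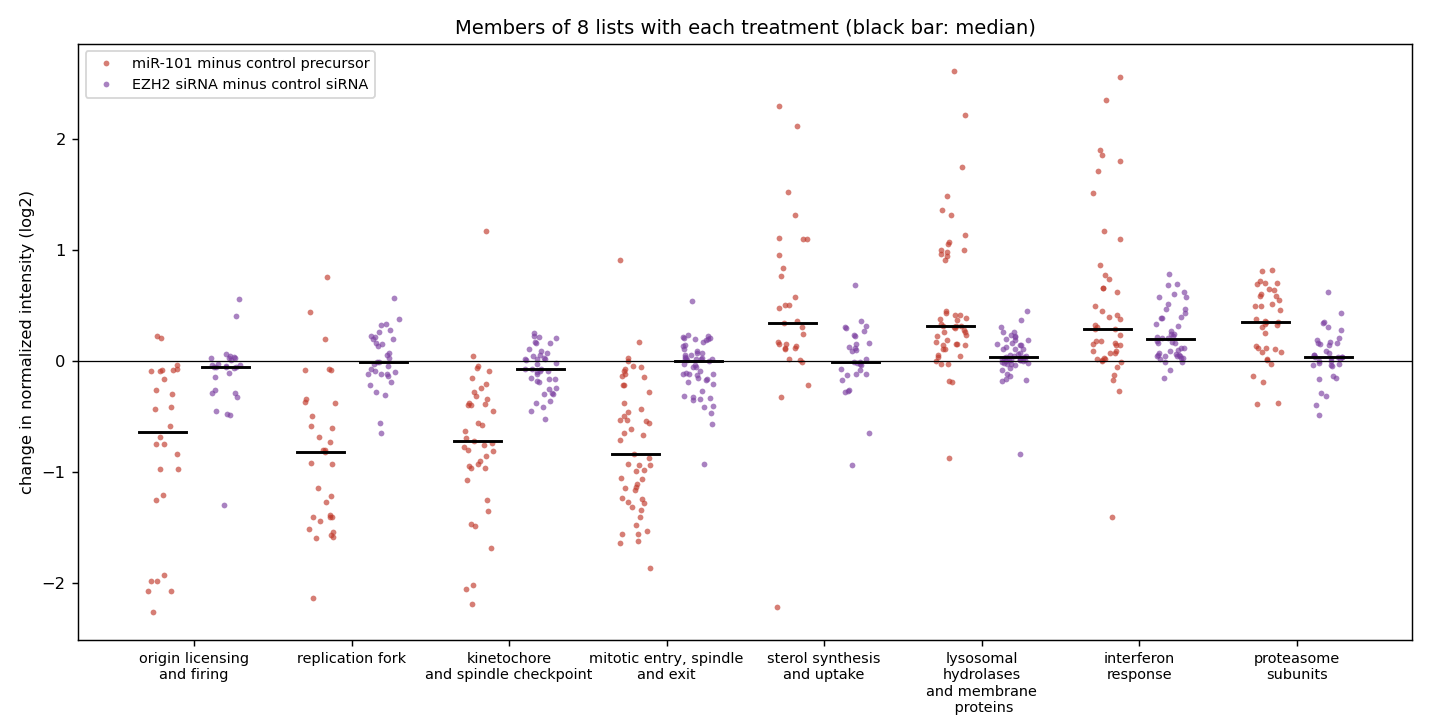
Log2 change (y axis) of every tested member of 8 gene lists (x axis) with miR-101 against control precursor (red) and with EZH2 siRNA against control siRNA (purple); black bars are medians. Red points of the 4 cell division lists lie mostly below 0 and purple ones around it, and red points of the lysosomal and proteasome lists lie mostly above 0.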

How the data were processed

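RNA of 12 UM-UC-3 samples was hybridised to single-colour Illumina bead arrays. The authors deposited an average bead signal, an intensity on a linear scale, and a detection p-value per probe and array, per the file headers. BeadStudio is named in the submitters' processing notes. No signal was below 49, so no background had been subtracted. A further deposited intensity table matched a quantile normalization of the raw signals in its sorted values (largest relative gap 3.33e-10) and served as an alternative.

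The limma function neqc (limma 3.58.1, R 4.3.3) corrected the background, quantile-normalized and gave log2 values (offset 16, background from the detection p-values of the deposited table). A detection p under 0.05 on 3 or more arrays kept 17844 probes, and a gene took its brightest probe. Names came through accessions or symbols in a RefSeq table of GRCh38.p14, and otherwise from the deposited table. Of the passing probes 3127 had no name. The 4 group means were estimated from 12 arrays by lmFit and eBayes (8 residual and 1.36 prior degrees of freedom), with two-sided tests and Benjamini-Hochberg adjustment over 13528 genes. The procedure was tested on simulated data. Every adjusted p is from this model. Where a group detected a probe on none of its arrays, the change is a bound: the other group's mean against, per array, the higher of its own and the lowest detected signal. For UNG its own signal was the higher, so its value is the measured change.

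The comparison, the 68 gene lists, the tests and the alternatives were chosen with earlier results of these data known. Lists are described by counts and medians beside those of all genes. Named genes were EZH2, the 15 largest rises and falls past the threshold without overlap and detected on all arrays of a group, the 2 largest changes of each list with at least 5 members tested, the 5 largest each way among genes detected in 1 group only and for the difference of the responses, and the genes shown with a promoter. Numbered open reading frames and provisional symbols were left out, and some other genes that the rule names are not reported here.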

Additional observations from a re-analysis of the deposited data

How the results depend on the processing

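The count of 6071 genes ran from 4278 with median scaling to 7137 with array weights over 17 settings, with 5186 from the 6 arrays alone, 5835 with the control siRNA as control, 6552 in the authors' table and 5297 to 5706 without 1 replicate. EZH2 kept its fall and its call in all of them. An offset of 50 and normexp with that offset before quantile normalization are the same computation and were run once. The count of 4579 genes whose responses differed was 2713 with median scaling; the cause was not tested. Named genes in this section are the 149 that the naming rule picked besides EZH2. Against the control siRNA 7 of these 149 turned sign: TJP1 (-1.01), ITGA2 (-1.02), TUBB3 (-1.07), SNRPC (-0.0334), KRT80 (0.14), CCL20 (0.0368) and CYCS (0.0695). In that comparison 14 others of the 149 no longer passed, and 35 passed with a size changed by over 1.5 times. Genes the text names outside the rule are not in these counts. Of those, IRF1, CDKN1A, MAP1LC3B and SQSTM1 at least also changed sign against the control siRNA. Sizes also moved by over 1.5 times for 12 named genes without background correction, 12 in the authors' table and 9 with the mean of a gene's probes. These and the other settings turned no named gene's sign. Median scaling took the call from 4 of them (TJP1, TUBB3, NDUFA7 and KRT80), the fit of the 6 arrays from NDUFA7, and leaving out 1 replicate from NDUFA7 (control precursor 3 or miR-101 2) or HOXB7 (control precursor 1 or 3, miR-101 1 or 2). Without 1 replicate the members that fell numbered 20 to 23 for origin licensing, 25 to 27 for the fork, 33 to 35 for the kinetochore and 41 to 43 for mitosis, and those that rose 34 to 38 for the lysosome, 28 to 29 for interferon, 20 to 24 for the proteasome and 14 to 16 for sterols. Whether replicate numbers paired the arrays was not settled. Deviations of same-numbered arrays correlated at -0.11, 0.18 and 0.25, and those of other pairs between -0.26 and 0.21. Deviations from a mean of 3 arrays are tied to each other, so these values cannot decide it. A fit with the replicate number as a block gave 6044 genes, 4615 differences of the responses and -0.90 for EZH2, and changed no named call. Motif shares over all changed genes, and their alternative, were not run, since fewer than 80% of the genes had a promoter. Genes detected in 1 group only numbered 206 and 98 at a detection p under 0.05, and 304 and 89 under 0.01. Of 624 further probes of 580 genes that passed, 496 had the same sign and 22 passed with the opposite one. In the dimmest bin, where log2 changes are understated by the offset, 13.6% of genes passed, and the cause of that low share was not tested.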
